A study of Mus musculus with 6 samples.

Results

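The genes described here encode the nuclear-encoded subunits of the mitochondrial oxidative phosphorylation complexes, together with Tmem70, an assembly factor of the ATP synthase. They were taken by gene name from the deposited gene table: names beginning Ndufa, Ndufb, Ndufc, Ndufs or Ndufv with a number, Sdha to Sdhd, Uqcr, Cyc1, Cox4 to Cox8 and Atp5, and Tmem70 itself. This gave 82 of 13116 listed genes. Complex I held 35 of them, complex II 4, complex III 9, complex IV 17 and complex V 16, and Tmem70 was the remaining gene. Ndufa4 and Ndufa4l2 carry complex I names but were placed with complex IV, where the NDUFA4 protein resides. All 82 had a mean of at least 0.5 FPKM (fragments mapped to a gene, scaled to its length and to all mapped fragments of the library) over the 6 mice and were tested, among 12847 genes that passed this filter.

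Oxidative phosphorylation passes electrons from NADH (complex I) and succinate (complex II) through ubiquinone, complex III and cytochrome c to oxygen at complex IV. Complexes I, III and IV pump protons out of the mitochondrial matrix, and complex V, the ATP synthase, uses their return to make ATP. Most subunits are encoded in the nucleus and the remainder by mitochondrial DNA, so both genomes must supply parts. White adipocytes hold few mitochondria beside brown adipocytes, but use them for fatty acid synthesis, triglyceride turnover and adipokine secretion. TMEM70 is an inner membrane protein that helps to build the ring of c subunits of the ATP synthase, and mutations of the human gene cause ATP synthase deficiency.

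The study examined epididymal white adipose tissue of C57BL/6 mice with adipose-specific deletion of HuR (gene Elavl1), an RNA-binding protein, to ask which transcripts differ when adipocytes lack it. Mice labelled HuRAKO (HuRflox/flox:AdipoQ-Cre+, n = 3) were compared with mice labelled control (HuRflox/flox:AdipoQ-Cre-, n = 3). All 6 carried floxed HuR alleles and were fed a high-fat diet for 16 weeks from 8 weeks of age. AdipoQ-Cre acts in adipocytes, whereas total RNA came from whole fat pads, in which macrophages, vessels and stroma keep HuR. In such bulk tissue, fewer cells of a type and less RNA per cell cannot be told apart. The study describes its controls as littermates, but the labels do not say which mice shared a litter, and p-values measure the spread between these mice.

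Elavl1 itself was not lower in the mice labelled HuRAKO. It stood at 4.66, 5.24 and 5.64 FPKM in these, against 3.93, 4.85 and 4.98 FPKM in controls (log2 difference 0.15, limma adjusted p = 0.807), so every direction below is between libraries as labelled. Control mouse 3 stood apart from the other libraries, with a score of 48.3 on the first principal component (41.1% of the variance) against -14.5 to -3.09 in the other 5 mice. The tissue label fitted its markers, as all 14 adipocyte markers were listed. Their summed level was 11740 to 12170 FPKM in mice labelled HuRAKO and 9037 to 13560 FPKM in controls, and control 3 gave the lowest value. Macrophage markers (15 gene names with 16 listed entries, all summed) reached 1386 to 2418 FPKM in mice labelled HuRAKO. In controls they summed to 1222 to 3776 FPKM, and here control 3 was the highest.

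Tmem70 was the member with the largest difference, and it was included with this difference already known, so its values are a description. It was measured at 23.4, 19.9 and 23.0 FPKM in mice labelled HuRAKO, against 8.56, 7.68 and 6.63 FPKM in controls. Every mouse labelled HuRAKO was more than 10 FPKM above every control, and the spread within each group was small (22.1 ± 1.87 FPKM in HuRAKO, 7.62 ± 0.964 FPKM in control, SD, n = 3 each). On the log2(FPKM + 1) scale the difference was 1.42 (SE 0.13, 95% interval 1.12 to 1.73), with a limma unadjusted p of 1.89e-05 and a Benjamini-Hochberg adjusted p of 0.0808 over all genes tested. The exact two-sided permutation test gave p = 0.1, the smallest value that 3 mice against 3 allow. No other member passed an unadjusted p of 0.05.

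Both transcripts of Tmem70 in the deposited transcript table were higher in mice labelled HuRAKO, by different amounts. Tmem70-201 (1710 bases) had 20.8, 17.9 and 21.8 FPKM in mice labelled HuRAKO, against 8.76, 7.69 and 6.71 FPKM in controls, a ratio of group means of 2.62. Tmem70-203 (1636 bases) had 3.98, 3.41 and 2.62 FPKM in mice labelled HuRAKO, against 0.269, 0.368 and 0.269 FPKM in controls, a ratio of 11.04. The groups did not overlap for either transcript, and Tmem70-203 was near 0 in every control. On the log2(FPKM + 1) scale Tmem70-203 differed by 1.72 (SE 0.17, limma adjusted p = 0.0636) and Tmem70-201 by 1.28 (SE 0.16, limma adjusted p = 0.144). Tmem70-203 made up 14.2% ± 3.06 of the summed level of both transcripts in mice labelled HuRAKO and 3.80% ± 0.797 in controls (SD, n = 3 each, exact permutation p = 0.1). These shares are the estimates of the authors' program, and the number of reads that tell the transcripts apart is unknown.

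The transcripts differ in the coding sequence by where exon 2 begins, and also slightly at both ends. In GENCODE M21 (GRCm38), Tmem70 lies on chromosome 1 from 16665207 to 16678275, plus strand, and exon 1 of both transcripts ends at 16665505. Exon 2 begins at 16667668 in Tmem70-201 and at 16667665 in Tmem70-203, so the coding sequence has 759 bases in Tmem70-201 and 762 bases in Tmem70-203. The lines below give the last 14 bases of exon 1 and the first bases of exon 2, with the 3 bases that only Tmem70-203 contains in capitals.
Tmem70-201: ccgggcgagcgcagatacctgtttgt
Tmem70-203: ccgggcgagcgcagCAGatacctgtttgt
The added bases are in frame, and they are the only stretch of the junction at which the transcripts can be distinguished.

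**Figure D1:**
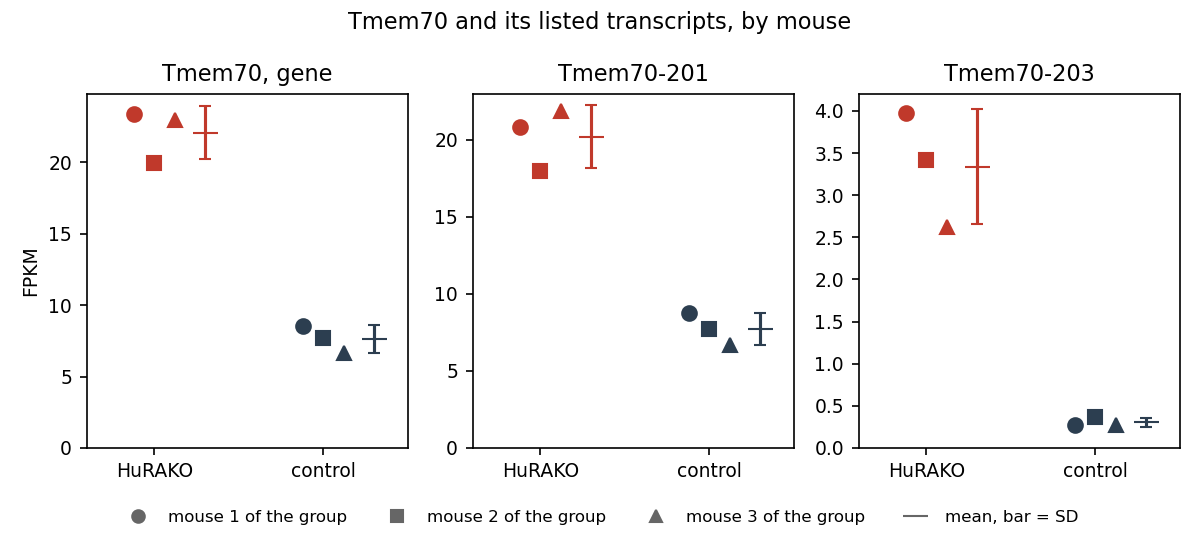
FPKM (y axis) of the Tmem70 gene and of its transcripts Tmem70-201 and Tmem70-203 in each mouse labelled HuRAKO (left) and control (right), with the group mean and SD beside the points. The HuRAKO points lie above the control points in all 3 panels, and Tmem70-203 is at 0.269 to 0.368 FPKM in controls.

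The genes beside Tmem70 had no difference of this size. Eloc, an elongin subunit gene that ends 8165 bases upstream, stood at 12.3, 11.4 and 10.3 FPKM in mice labelled HuRAKO, against 10.99, 11.33 and 10.79 FPKM in controls (log2 difference 0.03). Ly96, the TLR4 co-receptor MD-2, starts 9776 bases downstream and had a log2 difference of -0.10, with overlapping groups. Ube2w, a ubiquitin-conjugating enzyme gene, differed by -0.05. Further out, Rdh10 (531473 bases upstream, a retinol dehydrogenase) was lower at -0.41 and Jph1 (286285 bases downstream, a junctophilin) was higher at 0.38, with limma unadjusted p of 0.0138 and 0.0195 and adjusted p of 0.49 and 0.516.

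Some markers of other cell types also differed, before adjustment, between the groups for which Tmem70 differed. Of 12 endothelial markers 4 had an unadjusted p below 0.05 with more than 1.5-fold difference, all higher, and their summed level was 411 to 615 FPKM in mice labelled HuRAKO and 265 to 379.9 FPKM in controls. Of 10 smooth muscle and pericyte markers 4 did, all higher (357 to 520.2 FPKM in HuRAKO, 203 to 267 FPKM in control). Of 10 mesothelial markers 8 did, all lower (139 to 206 FPKM in HuRAKO, 249 to 410.5 FPKM in control). By these thresholds 1.27% of all genes tested were higher and 1.35% lower. In these lists 0 genes had a limma adjusted p under 0.05. Among adipocyte, macrophage, and progenitor and fibroblast markers, 0 genes passed the unadjusted thresholds. The part of these cell types in the Tmem70 result was not tested.

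Apart from Tmem70, the subunits differed little between the groups. A gene was called where the limma p, before adjustment, was below 0.05 and the difference above 1.5-fold. Both thresholds are those of the study, whose test is not named. By this call 1 member was higher (Tmem70) and 0 were lower. The background for this call was 2.62% of all genes tested, made up of 1.27% higher and 1.35% lower. Of the 81 subunits, 0 had an unadjusted limma p under 0.05, against 8.03% of all genes, and the smallest was 0.0589 for Ndufb3. At an adjusted p under 0.05 there was also no member, and the background was 0.00778% of all genes, which is 1 gene. In 61 of 81 subunits (75.3%) the 95% interval of the difference lay within 1.5-fold in either direction, against 59.4% of all genes tested. For the remaining subunits the interval was wider, and a difference of that size was not excluded by it with 3 mice a group.

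The groups did not overlap for 3 members that were higher (Tmem70, Ndufb2 and Ndufb3) and 2 that were lower (Cox6b2 and Cox7a2l). Over all genes, 7.04% did not overlap in the higher direction and 7.68% in the lower, 14.7% together. The members' share was below this background, but their overlap was tied to single controls. Control 3 was below all mice labelled HuRAKO in 69 of 81 subunits, which cannot then be lower without overlap. Control 1 was above all of them in 54, which cannot then be higher without overlap. The low share is therefore not read as a result about the members. The median log2 difference was 0.03 over complex I, 0.01 over complex II, 0.05 over complex III, -0.02 over complex IV and 0.00 over complex V, beside -0.01 over all genes tested. Single subunits ranged from -0.60 (Cox8b) to 0.33 (Ndufb3), and 50 of 81 were above 0.

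**Figure D2:**
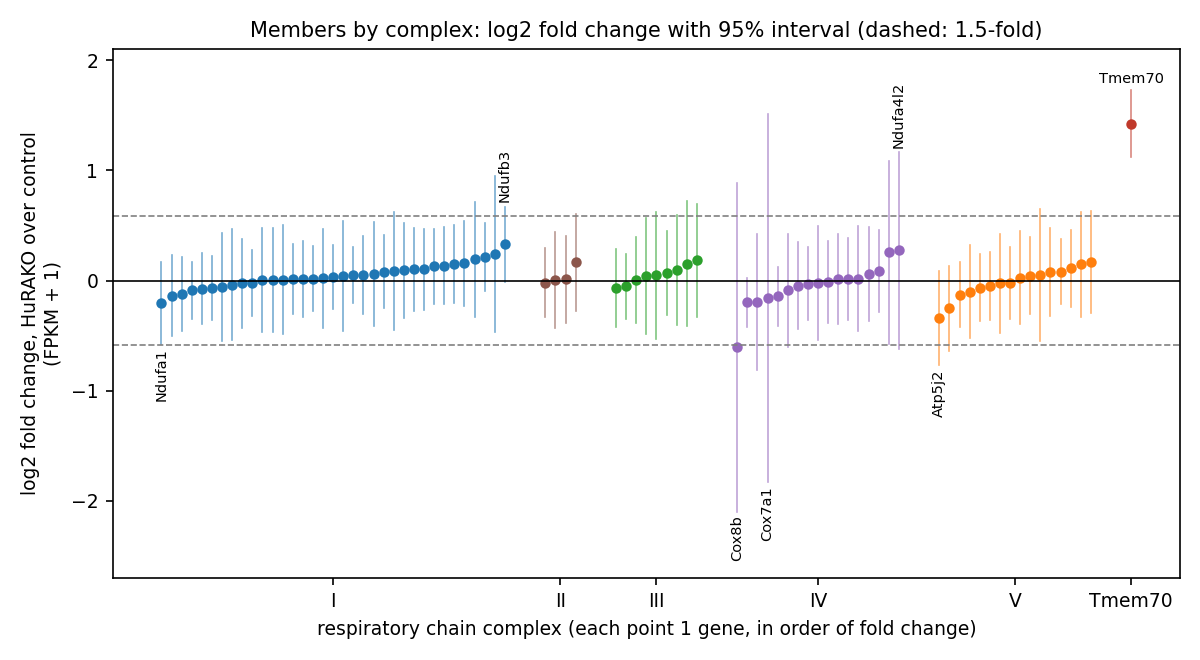
Log2 fold change of FPKM + 1, HuRAKO over control (y axis), for every member, grouped by complex and ordered by size within each (x axis). Points are limma estimates, vertical lines their 95% intervals and dashed lines mark 1.5-fold. Tmem70, at 1.42, is the only interval that does not cross 0.

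Complex I, the NADH dehydrogenase, had 25 of its 35 subunits above 0 and 10 below. Ndufb3, a small accessory subunit of the membrane arm, was measured at 108.8, 85.3 and 83.2 FPKM in mice labelled HuRAKO, against 77.5, 76.0 and 65.8 FPKM in controls. All 3 mice labelled HuRAKO were above all controls, with HuRAKO mouse 1 well above the rest. The log2 difference was 0.33 (SE 0.14, interval -0.02 to 0.67, limma adjusted p = 0.635). Ndufb2, another accessory subunit of the membrane arm, had 5.13, 4.83 and 5.23 FPKM in mice labelled HuRAKO, against 4.71, 4.63 and 3.46 FPKM in controls, again without overlap but with HuRAKO 2 close to control 1 (log2 difference 0.21, SE 0.13, adjusted p = 0.75).

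Ndufa1, an X-linked accessory subunit needed to assemble the membrane arm, had the highest gene level of complex I. It was measured at 116, 106 and 104.5 FPKM in mice labelled HuRAKO, against 143.5, 135 and 101 FPKM in controls. Controls 1 and 2 were above and control 3 below all mice labelled HuRAKO (log2 difference -0.20, adjusted p = 0.793).

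Complex II, succinate dehydrogenase, is the only complex made entirely from nuclear genes. Sdha, its flavoprotein, stood at 109.5, 121 and 112 FPKM in mice labelled HuRAKO, against 128, 127 and 89.0 FPKM in controls, a log2 difference of 0.01. Sdhc, a membrane anchor, was the farthest from 0 at 0.17 (SE 0.18, adjusted p = 0.849), and the other anchor Sdhd was at -0.02. The mice labelled HuRAKO lay between control 3 and the other controls for Sdha.

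In complex III, the cytochrome bc1 complex, 7 of 9 subunits were above 0. Cyc1, cytochrome c1, was measured at 88.9, 78.1 and 67.3 FPKM in mice labelled HuRAKO, against 83.6, 74.7 and 50.5 FPKM in controls (log2 difference 0.19, SE 0.21, adjusted p = 0.857). Uqcrc1, a core protein of the matrix side, differed by 0.15, and the small subunits Uqcrb and Uqcrh by -0.07 and -0.05. Uqcr10, the subunit with the highest gene level, was at 136, 128 and 124 FPKM in mice labelled HuRAKO and 152, 138 and 103 FPKM in controls, a log2 difference of 0.00. In all 9 subunits control 3 was the lowest of the 6 mice, and in 7 of them control 1 was the highest.

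In complex V, the ATP synthase that TMEM70 helps to assemble, 8 of 16 subunits were above 0 and 8 below, and 0 were called. Atp5b, the catalytic beta subunit, was measured at 218, 208 and 194 FPKM in mice labelled HuRAKO, against 257, 230.5 and 134 FPKM in controls (log2 difference 0.05, SE 0.25). Subunit c, the ring protein whose assembly involves TMEM70, is encoded by 3 genes with the same mature protein. Summed over transcripts and averaged over the 6 mice, Atp5g3 had 208 FPKM, Atp5g2 118 FPKM and Atp5g1 12.98 FPKM. Their log2 differences were 0.17 for Atp5g3, -0.07 for Atp5g2 and 0.08 for Atp5g1, all with overlapping groups and adjusted p of 0.861 or above. On the scale of the gene values, the 3 together summed to 141, 132 and 120.2 FPKM in mice labelled HuRAKO and 128, 142 and 107 FPKM in controls, so the groups overlapped for subunit c while they were apart for Tmem70.

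The lower end of complex V was held by Atp5j2, subunit f of the membrane part, and Atp5s, once named as its coupling factor B. Atp5j2 was measured at 28.9, 21.1 and 20.1 FPKM in mice labelled HuRAKO, against 33.3, 30.7 and 25.1 FPKM in controls, where HuRAKO 1 overlapped the control range. The log2 difference was -0.34 (SE 0.18, adjusted p = 0.711), and without HuRAKO mouse 1 it was -0.50 (adjusted p = 0.665). Atp5s differed by -0.25 (adjusted p = 0.761), and Atp5f1, subunit b of the peripheral stalk, by 0.11 (adjusted p = 0.872).

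Complex IV, cytochrome c oxidase, contains subunits with alternative forms that mark tissues. Summed over transcripts and averaged over the 6 mice, the general form was the higher one in each pair: Cox4i1 had 236 FPKM against 3.35 FPKM for Cox4i2, and Cox6b1 had 247 FPKM against 3.64 FPKM for the testis form Cox6b2. Cox7a2 had 135 FPKM against 4.61 FPKM for Cox7a1, and Cox8a had 404 FPKM against 9.82 FPKM for Cox8b. Cox7a1 and Cox8b are the forms of heart, skeletal muscle and brown fat. Ndufa4 had 132 FPKM and its paralog Ndufa4l2, which hypoxia induces, 7.54 FPKM.

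The general forms differed by little, with log2 differences of -0.02 for Cox4i1, 0.02 for Cox6a1, 0.06 for Cox6b1, 0.01 for Cox7a2, -0.02 for Cox7b and 0.09 for Cox8a. Cox8a, for example, was measured at 425, 404 and 412 FPKM in mice labelled HuRAKO and at 432, 439 and 312 FPKM in controls. Cox7a2l, which can link complexes III and IV into a supercomplex and is a shortened protein in C57BL/6 mice, varied little within each group. It had 106.5, 99.4 and 106.9 FPKM in mice labelled HuRAKO, against 118.5, 123 and 118 FPKM in controls. The groups did not overlap, and here control 3 was above all mice labelled HuRAKO. The log2 difference was -0.20 (SE 0.09, interval -0.42 to 0.03, limma unadjusted p = 0.0739, adjusted p = 0.659).

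The brown fat and muscle forms had the widest relative spread among controls of all subunits. Cox8b was at 7.44, 5.44 and 6.15 FPKM in mice labelled HuRAKO, against 25.3, 11.4 and 3.19 FPKM in controls. The mice labelled HuRAKO were alike, whereas controls spanned a wide range, with controls 1 and 2 above and control 3 below them. The log2 difference was -0.60 (SE 0.62, adjusted p = 0.839). Without control 3 it was -1.31 (SE 0.33, limma unadjusted p = 0.00769, adjusted p = 0.381), past the call, for which the background was then 1.7% lower. Leaving out the only control below the mice labelled HuRAKO had to move the difference down. Passing the call is therefore not read as a result. Over the 16 alternative fits the difference ranged from -1.31 to 0.02. Cox7a1 was at 5.94, 0.812 and 2.29 FPKM in mice labelled HuRAKO and 7.89, 2.57 and 0.805 FPKM in controls (log2 difference -0.16), with mouse 1 the highest in both groups.

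Cox4i2, a form found in lung and in pericytes, and Ndufa4l2, also a gene of pericytes, varied in parallel. Cox4i2 was at 4.60, 4.75 and 1.43 FPKM in mice labelled HuRAKO, against 2.45, 3.15 and 2.201 FPKM in controls. Ndufa4l2 was at 9.59, 9.81 and 3.39 FPKM in mice labelled HuRAKO, against 5.88, 6.74 and 4.33 FPKM in controls. In both genes HuRAKO mice 1 and 2 were above every control and HuRAKO mouse 3 was the lowest of all 6. The log2 differences were 0.26 (SE 0.35) for Cox4i2 and 0.27 (SE 0.37) for Ndufa4l2. The limma unadjusted p was 0.484 and 0.486. Without HuRAKO 3 the differences were 0.66 (adjusted p = 0.664) and 0.70 (adjusted p = 0.739), past the unadjusted call, against a background of 1.55% higher. Leaving out the lowest mouse had to raise both differences, and the background was not chosen in this way. Passing the call is therefore not read as a result. In the smooth muscle and pericyte list, 6 of 10 genes were also lowest of all mice in HuRAKO 3, such as Rgs5 at 66.2, 61.5 and 26.2 FPKM in mice labelled HuRAKO and 47.3, 32.6 and 28.1 FPKM in controls. Others went the other way: Tagln was highest of all mice in HuRAKO 3, at 51.5, 51.1 and 72.9 FPKM in mice labelled HuRAKO and 32.2, 35.9 and 33.2 FPKM in controls, and Acta2, Mylk and Abcc9 were above every control there. The list as a whole summed to 388 FPKM in HuRAKO 3, above the 203 to 267 FPKM of controls. The part of these cells in the values of Cox4i2 and Ndufa4l2 was not tested.

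**Figure D3:**
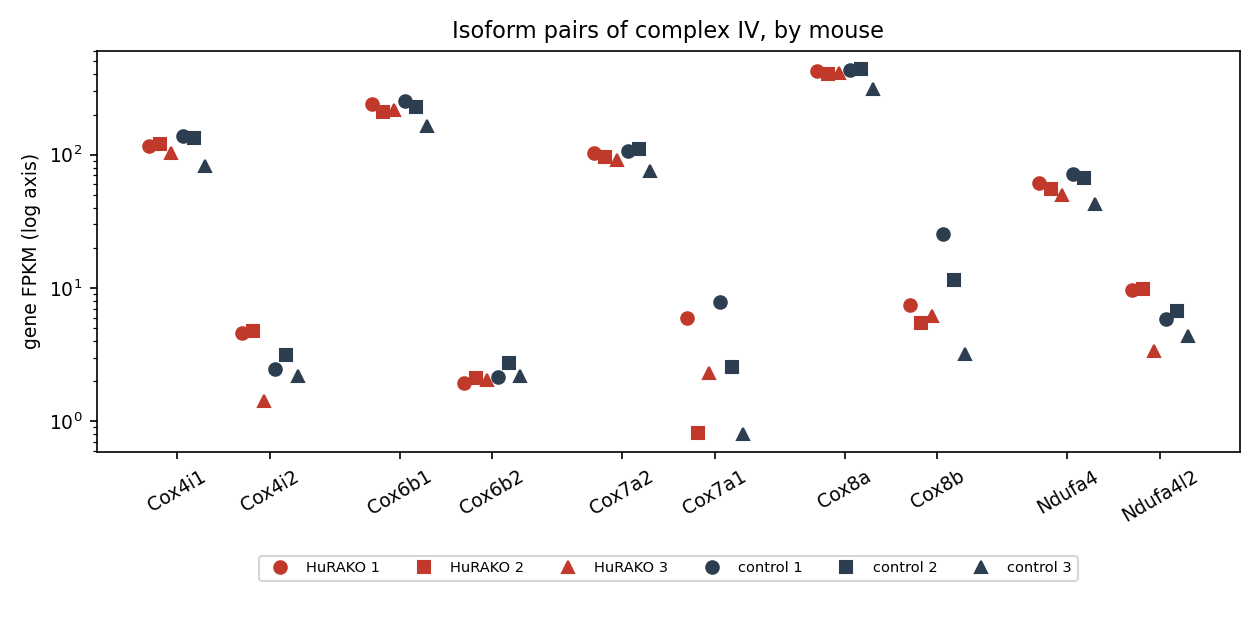
Gene FPKM (log y axis) of 5 pairs of complex IV forms in each mouse, with the general form left of its alternative form and HuRAKO points left of control points in each gene. The general forms lie close together, while Cox8b spans 3.19 to 25.3 FPKM in controls and Cox4i2 and Ndufa4l2 are lowest in HuRAKO 3.

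Subunits of all complexes shared their low mouse, and their levels spread more widely among controls than among mice labelled HuRAKO. Summed over the 81 subunits, the level was 5632, 5194 and 5029 FPKM in mice labelled HuRAKO, against 5974, 5694 and 4163 FPKM in controls. Controls 1 and 2 were the highest of all and control 3 the lowest, so that the control range contained the mice labelled HuRAKO. Control 3 was the lowest of the 6 mice in 69 of 81 subunits, and control 1 was the highest in 44. In 53 subunits all 3 mice labelled HuRAKO fell within the control range. The median coefficient of variation was 8.31% in mice labelled HuRAKO and 18.2% in controls, and the control value was the larger in 68 of 81 subunits. The same share over all genes was not computed. Control 3 also stood apart over all genes, as the highest mouse in 3484 of 12847 and the lowest in 2545. The wider control spread is therefore not read as particular to the subunits.

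Leaving out control 3 turned the direction. All 3 mice labelled HuRAKO against controls 1 and 2 gave a median log2 difference of -0.13 over the subunits, with 69 of 81 below 0, beside 0.00 over all genes. By complex the median was then -0.11 for complex I, -0.13 for complex II, -0.13 for complex III, -0.18 for complex IV and -0.15 for complex V. Of the subunits, 5 had an unadjusted limma p under 0.05, all lower and among them Ndufa1, Cox6c, Cox8b and Atp5j2, against a background of 5.1% lower, and the smallest adjusted p was 0.381. With control 1 left out instead, only 13 of 81 were below 0 and the median was 0.12. Without HuRAKO 1 the median was -0.03, with 47 of 81 below 0. The direction of the small difference of the subunits therefore changed with the mouse left out, and no subunit passed the adjusted threshold in these fits.

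The mitochondrially encoded subunits were also highest in control 1 and lowest in control 3, with wider spacing. The 13 protein-coding genes of mitochondrial DNA, a list added after the table was opened, summed to 23550, 24260 and 22550 FPKM in mice labelled HuRAKO, against 32350, 25530 and 16010 FPKM in controls. This was 9.35%, 9.69% and 8.92% of all FPKM in mice labelled HuRAKO, against 12.2%, 10.03% and 6.31% in controls. Each of the 13 genes was highest in control 1 and lowest in control 3. For mt-Co1, a catalytic subunit of complex IV, the values were 4645, 4719 and 4517 FPKM in mice labelled HuRAKO and 6320, 5177 and 3635 FPKM in controls. The median log2 difference of the 13 was 0.01, or -0.32 without control 3, and 0 were called.

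The 23 genes of mitochondrial mass and of the citrate cycle also had their lowest sum in control 3, and 17 of them were lowest there. The sums were 813.9 to 937 FPKM in mice labelled HuRAKO and 652 to 939 FPKM in controls. Control 1 (938.9 FPKM) and HuRAKO 1 (937.2 FPKM) were nearly level at the top. By gene, HuRAKO 1 was the highest mouse in 11, control 2 in 6 and control 1 in 5. Adipocyte markers were low in control 3 too, with 10 of 14 at their lowest there and a median deviation of -0.44 on the log2 scale, beside -0.33 for the subunits. Macrophage markers were at their highest in control 3, with a median deviation of 0.98. Progenitor and fibroblast markers (0.58) and mesothelial markers (0.75) were also high in control 3. Endothelial markers (-0.43) and smooth muscle and pericyte markers (-0.37) were low there. In this mouse the subunits were thus low together with adipocyte and endothelial markers, while macrophage, progenitor and mesothelial markers were high. The part of cell composition was not tested.

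**Figure D4:**
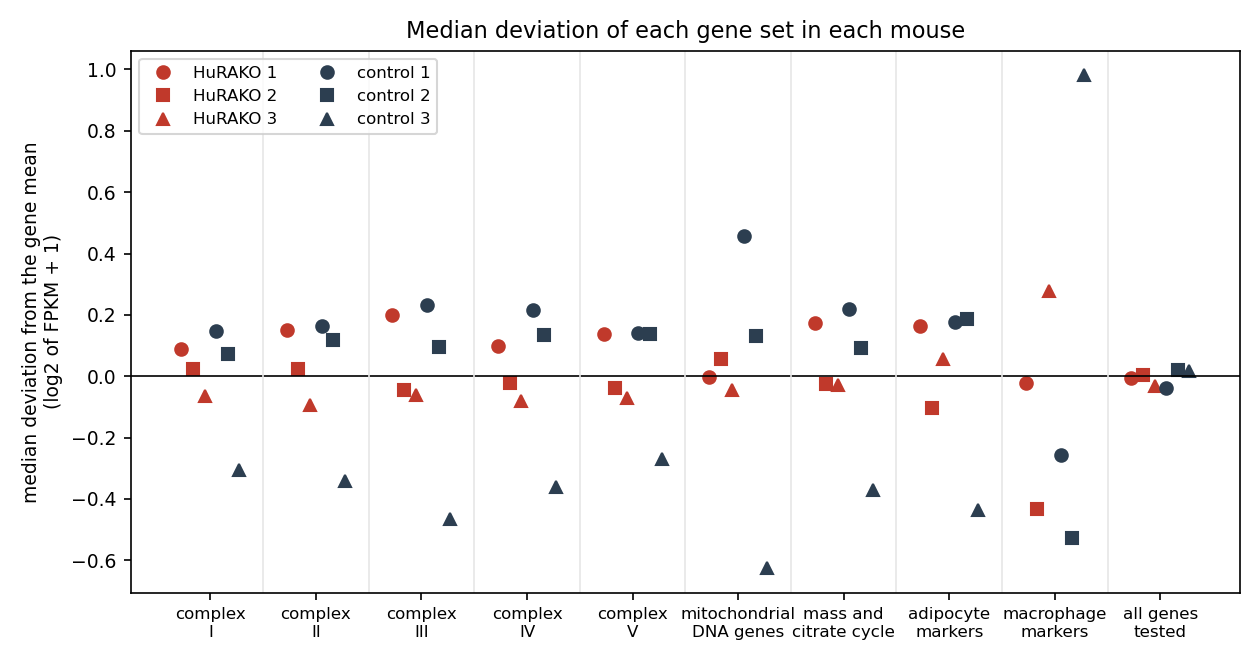
Median deviation of log2(FPKM + 1) from the gene mean over the 6 mice (y axis) for each complex and for 5 other gene sets (x axis), with 1 point per mouse, HuRAKO left of control. Control 3 lies at -0.27 to -0.47 in the 5 complexes and at -0.63 in the mitochondrial DNA genes, against 0.02 over all genes tested.

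Other assembly factors were also compared. Control 3 was the lowest mouse in 8 of 18 factors of complex I and 5 of 22 of complex IV, against 2545 of all 12847 genes tested. Control 1 was lowest in 7 of the complex I factors, each mouse labelled HuRAKO in 1 and control 2 in 0. Of the complex IV factors, HuRAKO 1 was lowest in 6 and each other mouse in 1 to 5. Tmem70 was lowest in control 3 as well, but all controls were far below the mice labelled HuRAKO. Besides Tmem70, 0 assembly factors were called in any of the lists of complex I (18 of 19 genes listed, median log2 difference 0.09), complex II (4, 0.05), complex III (6, -0.01), complex IV (22 of 23, 0.03) and complex V with its inhibitor (5, -0.04). Atpaf1, the chaperone of the ATP synthase beta subunit, was at 5.11, 5.69 and 6.00 FPKM in mice labelled HuRAKO and 6.26, 6.62 and 5.41 FPKM in controls (log2 difference -0.10). Atpaf2, the chaperone of the alpha subunit, differed by 0.39 (SE 0.26, adjusted p = 0.779). The 1 assembly factor with an unadjusted p under 0.05 was Sco1, which carries copper to complex IV, at 1.68, 1.94 and 1.92 FPKM in mice labelled HuRAKO and 2.15, 2.81 and 2.64 FPKM in controls (log2 difference -0.31, SE 0.11, adjusted p = 0.585). For complex I the smallest p belonged to Ndufaf5, at 3.68, 3.51 and 4.38 FPKM in mice labelled HuRAKO and 2.95, 3.23 and 3.04 FPKM in controls (log2 difference 0.25, adjusted p = 0.636).

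A mixed list of ubiquinone synthesis enzymes, electron carriers and some genes that are neither (14 of 15 genes listed) had a median of -0.05. In it 0 were called, and the smallest p was for Coq5 (-0.22, adjusted p = 0.683). Regulators of mitochondrial gene expression (16 of 17 listed) had a median of -0.11, also with 0 called. Ppargc1a, the coactivator PGC-1 alpha, was at 0.829, 1.05 and 0.509 FPKM in mice labelled HuRAKO and 1.40, 2.44 and 0.681 FPKM in controls (log2 difference -0.43, adjusted p = 0.757). Gabpb1, a subunit of the GABP factor, had the smallest p of the list, at -0.23 without overlap of the groups (adjusted p = 0.65). In the complex II and III lists the smallest p belonged to Sdhaf4 (0.28, adjusted p = 0.815) and Ttc19 (0.23, adjusted p = 0.648), and among the mass and citrate cycle genes to Dlst (-0.41, adjusted p = 0.619).

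Transcripts of the members were examined because a gene total can hide a change of form. The transcript table listed 157 transcripts of the 82 genes, of which 153 were tested, and 43 genes had more than 1. With the same call, 3 transcripts were higher and 4 lower, against a background of 2.31% higher and 2.28% lower (4.59% together), and 0 had an adjusted p under 0.05 (background 0.0603%). An unadjusted p under 0.05 was found for 9, against 6.52% of all transcripts. Groups did not overlap for 5 higher and 7 lower transcripts, against 6.49% and 6.62% of all transcripts. For 153 tested transcripts these counts were near or below the background, so they are not read as a result about the members. The transcripts called higher were Tmem70-201, Tmem70-203 and Ndufb2-202, and the values of called transcripts below are a description. The counts of called transcripts changed when single mice were left out: 7 were higher without HuRAKO 3 and 5 without HuRAKO 1. The number that were lower was 7 without HuRAKO 2, 2 without HuRAKO 1, and 1 without HuRAKO 3 or without control 2. The shares over all transcripts in these fits are not given here, so the changed counts are not read as a result about the members.

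Ndufb2-202 (455 bases) was measured at 25.4, 20.2 and 23.1 FPKM in mice labelled HuRAKO, against 11.1, 13.02 and 10.4 FPKM in controls. The other listed transcript, Ndufb2-205 (4371 bases), was at 3.70, 3.73 and 4.12 FPKM in mice labelled HuRAKO and 4.55, 4.16 and 3.06 FPKM in controls. The short form separated the groups by more than 7 FPKM, while the long form overlapped. Ndufb2-202 differed by 0.93 on the log2 scale (SE 0.16, limma unadjusted p = 0.00131, adjusted p = 0.374) and Ndufb2-205 by -0.01 (SE 0.17). The short form made up 85.5% ± 1.56 of the summed level in mice labelled HuRAKO and 74.7% ± 3.28 in controls (SD, n = 3 each, exact permutation p = 0.1).

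Both Ndufb2 transcripts use the same coding exons, with 315 coding bases, and differ slightly at the 5' end and mainly in the last exon, which starts at 39599392 on chromosome 6 (GRCm38, plus strand) and is 80 bases long in Ndufb2-202 and 3991 bases long in Ndufb2-205. The transcripts thus differ in their untranslated ends, almost entirely at the 3' end, and not in the protein. The deposited gene value behaved as fragments over the merged exons of a gene: transcript values times length, over merged exon length, came within 10% of it in 80.6% of 67 members with matching identifiers. For Ndufb2 this places the gene value near that of the long form. Summing the 2 transcripts instead, a choice made after seeing the data, gave a log2 difference of 0.76 for the gene (adjusted p = 0.359) and moved it past the call.

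**Figure D5:**
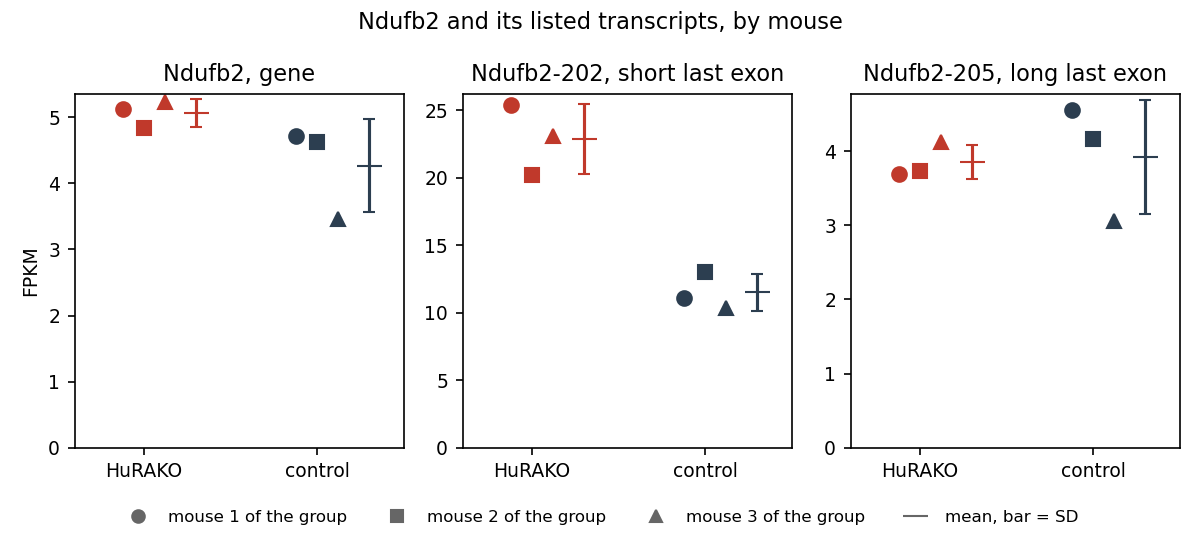
FPKM (y axis) of the Ndufb2 gene and of its transcripts Ndufb2-202 (short last exon) and Ndufb2-205 (long last exon) in each mouse labelled HuRAKO (left) and control (right), with the group mean and SD beside the points. Only Ndufb2-202 shows a wide gap, with HuRAKO mice at 20.2 to 25.4 FPKM and controls at 10.4 to 13.02 FPKM.

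The 4 transcripts that were lower are minor forms or have values near 0. Cox7c-204 was at 2.39, 3.30 and 2.94 FPKM in mice labelled HuRAKO, against 4.53, 4.47 and 6.04 FPKM in controls (log2 difference -0.63, adjusted p = 0.63), and made up at most 4.26% of its gene in any mouse. Ndufs5-203 was at 0.496, 1.45 and 0.418 FPKM in mice labelled HuRAKO and 1.69, 2.60 and 2.15 FPKM in controls (log2 difference -0.85, adjusted p = 0.663). Cox6b2-201 (-1.12, adjusted p = 0.719) and Atp5c1-205 (-0.82, adjusted p = 0.737) were under 2.5 FPKM in every mouse. The genes Cox7c, Ndufs5 and Atp5c1 had log2 differences of 0.02, -0.03 and -0.10 with overlapping groups. Cox6b2 was at 1.94, 2.11 and 2.05 FPKM in mice labelled HuRAKO and 2.15, 2.75 and 2.19 FPKM in controls, lower without overlap (log2 difference -0.14, adjusted p = 0.793).

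Transcript estimates of these genes can swing within a group. Cox6c-203 was at 0.579, 48.2 and 0.667 FPKM in mice labelled HuRAKO and at 62.2, 65.2 and 0.58 FPKM in controls, whereas the main form Cox6c-201 stayed between 98.3 and 139 FPKM in all mice. In all, 3 transcripts of the members were under 1 FPKM in some mouse and over 10 FPKM in another. For Cox6c the gene value was 21.4, 25.6 and 18.8 FPKM in mice labelled HuRAKO and 30.2, 31.0 and 16.7 FPKM in controls (log2 difference -0.19).

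Because most subunits were lowest in the same mouse, their promoters were read for sites of factors known to act on mitochondrial genes. RefSeq (GRCm38.p6) windows from 250 bases before to 50 bases after the start were matched by symbol for 65 of the 82 members, and 17 had no entry. The motif of NRF1, GCGC and TGCGC with any base between them, was searched on both strands and found in 16 of 65 windows (24.6%), against 10.1% of the windows of all genes listed in the deposited table and 4.78% of all annotated genes. The ETS motif bound by GABP, CCGGAAG, was in 23.1% of the members' windows (17.6% of listed genes), the YY1 motif AAGATGGCG in 9.23% (3.14%) and the estrogen-related receptor motif TCAAGGTCA in 3.08%, which is 2 windows (0.257%). No motif of the 4 contains another. For members the window nearest the annotated gene start was used, and for the comparison genes the first window of each symbol, so the shares come from windows chosen differently. The windows below are 60 bases each, 5' to 3', with NRF1 matches, on either strand, in capitals. The first 4 belong to the subunit with the highest gene level among those with a match upstream of the start in complexes I, II, IV and V (complex III had none), and the last 2 to the brown fat and muscle forms.
Ndufs5 (chr4:123718250-123718309, minus strand): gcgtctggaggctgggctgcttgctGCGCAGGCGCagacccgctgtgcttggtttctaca
Sdha (chr13:74350241-74350300, minus strand): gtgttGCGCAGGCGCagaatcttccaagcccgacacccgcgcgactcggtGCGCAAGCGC
Cox6a1 (chr5:115349041-115349100, minus strand): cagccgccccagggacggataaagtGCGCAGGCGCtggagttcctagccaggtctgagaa
Atp5h (chr11:115420026-115420085, minus strand): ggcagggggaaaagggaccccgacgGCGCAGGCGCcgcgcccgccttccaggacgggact
Cox7a1 (chr7:30184111-30184170, plus strand): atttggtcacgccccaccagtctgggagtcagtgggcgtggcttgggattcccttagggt
Cox8b (chr7:140900447-140900506, minus strand): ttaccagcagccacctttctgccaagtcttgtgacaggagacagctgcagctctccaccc
The windows of Sdha, Cox7a1 and Cox8b end at the base before the start. The 4 genes with the motif had log2 differences of -0.03 (Ndufs5), 0.01 (Sdha), 0.02 (Cox6a1) and -0.02 (Atp5h), and a match is a description of the letters only.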

How the data were processed

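RNA of epididymal fat from 6 mice was sequenced, and the deposited tables give FPKM per gene and per transcript that the authors made with a read aligner, Bowtie 0.12.2, on GRCm38 per the labels. The program that computed FPKM and the depth are not given in the sources used here, and no counts were used. The labels name a TruSeq kit and the study's methods a stranded kit, so the library type is uncertain. All 6 value columns of each table were mapped to mice by their names, and 0 were left out. 1 empty line per table was not analysed here.

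Groups were compared with limma 3.58.1 (R 4.3.3) on log2(FPKM + 1), on every gene or transcript whose mean reached 0.5 FPKM, with Benjamini-Hochberg adjustment over all of them. Fold changes on this scale understate those of low genes. A call is an unadjusted p under 0.05 with a fold over 1.5. Scripts were tested on simulated data. Tables and figures used Python 3.11.15, pandas 2.3.3 and matplotlib 3.10.9. Members and lists were chosen with earlier results of these data known.

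Named genes were Tmem70, any member called, in each complex the member with the highest gene FPKM and the 2 higher and 2 lower with the smallest p, the complex IV forms, the subunit c genes, in each other list the gene with the smallest p, and every transcript called. A gene that this rule names is not reported here. Others (Cox6c, Ppargc1a, Atpaf1, mt-Co1, Rgs5, Tagln, Acta2, Mylk, Abcc9, the genes near Tmem70 and the other transcripts of genes with a called one) were named after their values were seen.

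Mice with the same replicate number deviated together (r = 0.10, 0.17 and 0.22 across genes), although HuRAKO 2 correlated as well with control 1 (r = 0.11) and the labels do not say what the numbers mark, so a fit with the replicate as a block was an alternative. The others were a pseudocount of 0.1, no filter or a filter at 1 FPKM, rescaling to a common sum, centring on the median, a mean-variance trend, no moderation, array weights, each mouse left out and summed transcripts.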

Additional observations from a re-analysis of the deposited data

How the results depend on the processing

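Tmem70 passed the call (unadjusted limma p under 0.05 and fold over 1.5) in all 16 alternatives, with log2 differences of 1.34 to 1.53 and adjusted p of 0.0403 to 0.435. It passed an adjusted p of 0.05 after rescaling to a common sum and with array weights, where 1 member did so, and in no other alternative. With the replicate number as a block its difference was 1.42 (adjusted p = 0.404), and the pairing changed no call. Members called higher numbered 2 with summed transcripts, which was chosen after seeing the data, and 1 to 3 with a mouse left out. Members called lower numbered 0 to 1 with a mouse left out, and members at an adjusted p under 0.05 numbered 0 each time. The highest counts came without HuRAKO 3 (1.55% of all genes higher) and without control 3 (1.7% lower). For the other fits no share over all genes is given, so these counts are not read as a result about the members. With a mouse left out, transcripts called higher ranged over 3 to 7 and lower over 1 to 7, for which no share over all transcripts is given. Without moderation 2 were lower. The cause of these shifts was not tested. Of the 39 named members and transcripts, none changed sign while called. Counting each of the 39 once per alternative, 596 values were unchanged, 4 came past the call and 15 lost it. Depth is unknown, 3 mice a group limit each interval, and transcript values near 0 are the least certain.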
